A study of Mus musculus with 12 samples.

Results

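The comparison set hippocampal RNA of sons of stress-induced depressed males (F1_Dep) against that of sons of normal males (F1_Ctl). Its members were chosen by the sample labels: 3 F1_Dep and 3 F1_Ctl libraries, 6 of the 12 libraries of the series, and all 16163 genes that passed a filter on low counts were tested. Every one of the 6 mice was a male C57BL/6 aged 8 weeks, and the labels give no genotype difference, allele or drug for either group. The fathers of F1_Dep had been stressed, and the labels name no stress applied to the sons. The sources used here do not tell how the fathers were stressed and judged depressed, how many fathers and litters stand behind each group, or the time of day of tissue collection. The labels call the 3 mice of a group independent, but brothers could be among them, so p-values measure the spread between these samples only. The other 6 libraries, from unstressed males (F0_Ctl) and stressed males (F0_Dep) labelled as the earlier generation, entered the fit to share its estimate of the spread.

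The hippocampus holds a chain of principal neurons: granule cells of the dentate gyrus send mossy fibres to field CA3, and CA3 sends its output to field CA1. The dentate gyrus also keeps dividing precursors that become granule cells in the adult. The hippocampus is rich in corticosteroid receptors, through which glucocorticoid stress hormones switch on a known group of target genes and through which the region restrains the stress hormone axis.

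Values below are CPM (expected counts scaled to the TMM-adjusted library size) unless said otherwise, and differences are log2 fold changes, F1_Dep minus F1_Ctl, with their standard error (SE). A gene was called, or is said to have risen or fallen, at a Benjamini-Hochberg adjusted p under 0.05 in edgeR's quasi-likelihood test. For gene groups the text gives counts and medians, and a list level, which is the median over members of log2 CPM centred on the mean of the 6 libraries. Over all 16163 genes the median log2 fold change was -0.02, with 46.9% of genes above 0 and 53.1% below.

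Library totals lay between 18277208 and 23083678 counts over the 12 libraries, and between 18968204 and 23083678 over the 6 F1 libraries. Markers of the hippocampal fields were read in every library, and so were markers of tissue near it, at levels that differed between single libraries. F1_Dep 1 stood apart in striatum markers, with a list level of 2.11 against -0.43 to 0.04 in the other F1_Dep libraries and -0.94 to -0.31 in F1_Ctl. Choroid plexus markers ran from -3.20 in F1_Ctl 1 to 2.15 in F1_Ctl 3, with F1_Dep between 0.04 and 1.23. Lane names appear in the labels of F1_Ctl alone, so a difference in sequencing cannot be told apart from the group. Genes encoded in the mitochondrion took 6.96 ± 0.242% of the counts in F1_Dep and 9.20 ± 1.74% in F1_Ctl (SD, n = 3), an exact two-sided permutation p = 0.1, the smallest that 3 against 3 can give.

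In sons of depressed males 27 of the 16163 genes were called (0.167%), 7 of them higher (0.0433%) and 20 lower (0.124%). Among the 7 that rose were targets of glucocorticoids (Plin4, Cdkn1a, Per1), a neuropeptide precursor (Vgf) and a stress-responsive kinase (Plk3). Among the 20 that fell were genes of dentate granule cells (Lrrtm4, Sema5a, Plk5, Tdo2, Dgkh), genes of neuronal contact (Synpr, Lingo2), and Fabp7, a fatty acid-binding protein of neural precursors and astrocytes. All 27 are protein-coding, and in all 27 the 3 libraries of one group lay on one side of the other 3, which 8.71% of all genes did as higher and 10.3% as lower in F1_Dep. The 27 adjusted p-values lay between 0.0308 and 0.048. At an unadjusted p under 0.05 stood 6.32% of all genes as higher and 8.53% as lower. DESeq2 called 1.64% as higher and 1.8% as lower, and limma's voom with library quality weights called 4.89% and 6.93%, which are the background for the counts by those tools given below.

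**Figure D1:**
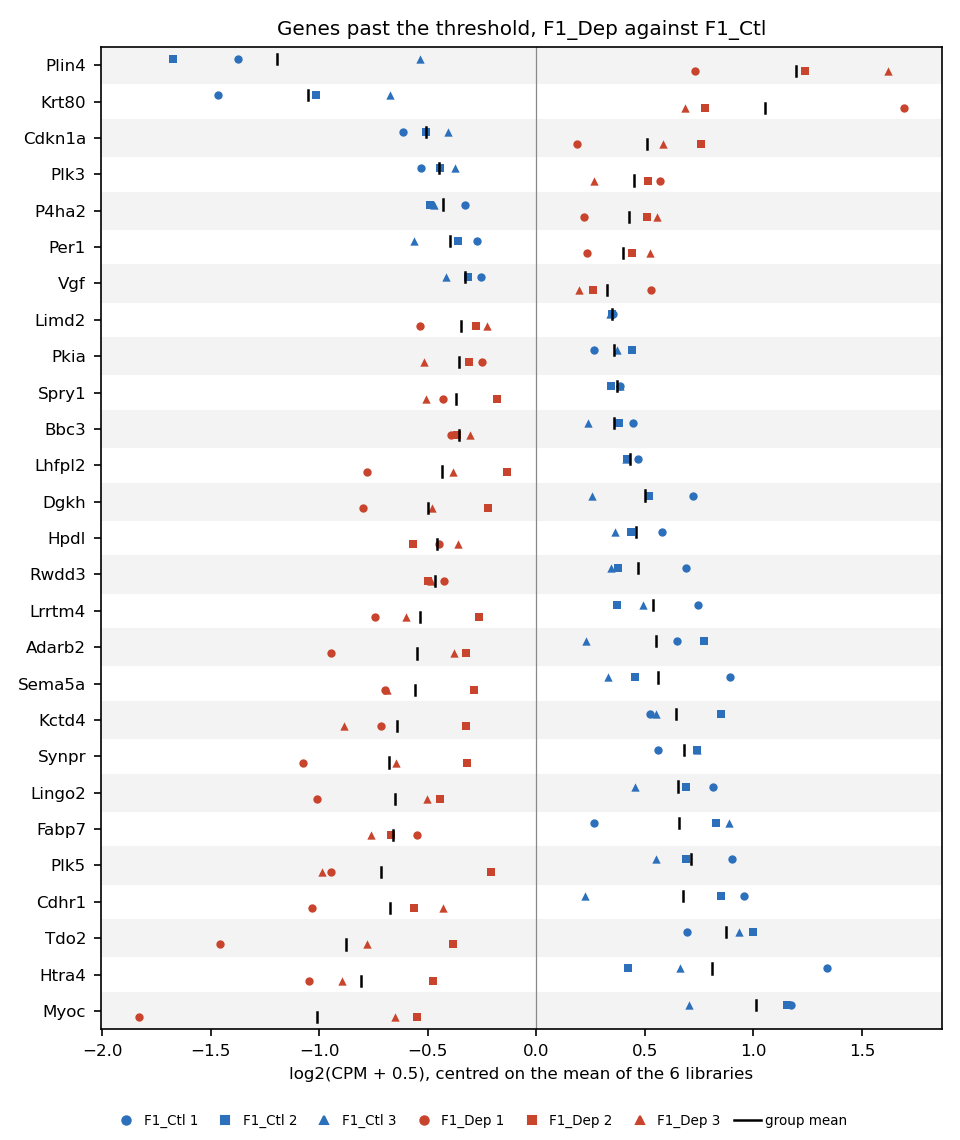
The 27 genes called in F1_Dep against F1_Ctl, 1 row a gene in order of fitted log2 fold change; points are single libraries on log2(CPM + 0.5) centred on the mean of the 6 libraries, and black bars are group means. In every row the 3 red F1_Dep points and the 3 blue F1_Ctl points do not overlap, and F1_Dep 1 is the lowest F1_Dep library for Myoc, Tdo2 and Synpr.

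Plin4, a perilipin that coats lipid droplets (chr17:56100591-56109803 on GRCm38, minus strand), was read at 18.5, 26.5 and 34.6 CPM in F1_Dep 1 to 3 and at 3.91, 3.08 and 7.39 CPM in F1_Ctl 1 to 3. Each son of a depressed male stood above each control, and the rise of 2.47 ± 0.38 was the largest among the called genes (adjusted p = 0.037). Krt80, a keratin gene (chr15:101347444-101370162, minus strand), had 15, 7.7 and 7.2 CPM against 1.23, 1.87 and 2.5, a rise of 2.41 ± 0.34. F1_Dep 1 was the highest of the F1_Dep libraries for Krt80 and the lowest for Plin4. Cdkn1a, the cell cycle inhibitor p21 (chr17:29090976-29100727, plus strand), rose by 1.09 ± 0.17, from 6.24, 6.77 and 7.29 CPM in F1_Ctl to 11.3, 17 and 14.9 in F1_Dep. P4ha2, which hydroxylates collagen prolines, rose by 0.89 ± 0.14, and its values of 15.5, 19.1 and 19.7 CPM in F1_Dep lay clear of 10.5, 9.3 and 9.43 in F1_Ctl.

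Plk3, a polo-like kinase induced by activity and by damage, rose by 0.94 ± 0.12; the F1_Dep libraries held 20.8, 20.01 and 16.7 CPM and the F1_Ctl libraries 9.45, 10.1 and 10.6. The clock gene Per1 had 98.6, 114 and 121 CPM in F1_Dep and 69.4, 65.2 and 56.7 in F1_Ctl, a rise of 0.80 ± 0.13. Vgf, a secreted precursor of neuropeptides that growth factors induce, held 257, 214 and 204 CPM against 149, 143 and 134 and showed the smallest rise of the 7, 0.66 ± 0.11. In deposited FPKM, which are per length and were used for F1_Dep alone, Vgf held 120.1, 92.9 and 88.8 and Plin4 1.99, 2.44 and 3.28 in F1_Dep 1 to 3. Per length, Vgf RNA was thus far more abundant than Plin4 RNA in each of these mice.

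Of the genes that fell, Synpr had the smallest p. It encodes synaptoporin, a membrane protein of synaptic vesicles known from mossy fibres (chr14:13284780-13616340, plus strand). F1_Dep held 50.5, 85.4 and 68 CPM and F1_Ctl 158, 178 and 179, and Synpr fell by 1.34 (SE 0.16) on the log2 scale (adjusted p = 0.0308). Kctd4, of a family that shares a potassium channel tetramerisation domain, fell by 1.28 (SE 0.16), with 59.1, 77.6 and 52.5 CPM against 140.0, 176 and 143. Its 3 F1_Dep libraries lay well below the lowest control. Adarb2, an RNA-binding relative of the adenosine deaminases that edit RNA, fell by 1.11 (SE 0.17), from 43.3, 47.3 and 32.2 CPM to 14, 21.8 and 21. Lingo2, a leucine-rich repeat membrane protein, fell by 1.35 (SE 0.21) from 18.4, 16.8 and 14.2 CPM to 4.83, 7.4 and 7.07.

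Signalling regulators were among the smaller falls. Pkia, an inhibitor of protein kinase A, fell by 0.72 (SE 0.11), and its 147, 141 and 122 CPM in F1_Dep stood below 210.3, 238 and 226 in F1_Ctl. Spry1, which restrains growth factor signalling through the ERK pathway, fell by 0.77 (SE 0.13), with 8.28, 9.94 and 7.83 CPM against 14.9, 14.5 and 15. Bbc3, the cell death gene also called PUMA, fell by 0.77 (SE 0.13) from 8.31, 7.92 and 7.14 CPM to 4.42, 4.52 and 4.73. The spread within each group was small for both Spry1 and Bbc3. Limd2 fell by 0.69 (SE 0.11) and Lhfpl2 fell by 0.85 (SE 0.14), from CPM values that differed by little between the controls (101, 100.5 and 99.7, and 49.2, 47.4 and 47.3).

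Other falls were in genes of low CPM. Myoc, the secreted glycoprotein myocilin, had 1.39, 4.09 and 3.78 CPM in F1_Dep and 14.6, 14.5 and 10.4 in F1_Ctl and fell by 2.08 (SE 0.35), the largest fall of the 20. Htra4, a secreted serine protease gene, fell by 1.91 (SE 0.29) from 8.84, 4.46 and 5.34 CPM to 1.29, 2.15 and 1.49. F1_Dep 1 was the lowest library for both. Cdhr1, a cadherin-related gene, fell by 1.53 (SE 0.24), Rwdd3, which promotes SUMO conjugation, fell by 1.01 (SE 0.16), and Hpdl, a mitochondrial dioxygenase-like gene, fell by 1.0 (SE 0.16). These 3 genes held between 1.7 and 5.61 CPM in F1_Dep and between 4.74 and 12.7 in F1_Ctl.

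The number of calls depended on single libraries and on the fit: 0 genes passed without F1_Ctl 2 (1687 had an unadjusted p under 0.05), 0 without F1_Dep 3 (1720) and 0 with the F1 libraries fitted alone (2033), where the lowest adjusted p was 0.115. It was 15 without F1_Dep 2, 678 without F1_Ctl 1, 556 by DESeq2 and 1911 by voom, and both tools called all 27 genes, which kept their sign in every alternative run. The splits of those calls were 1 higher and 14 lower without F1_Dep 2 and 13 higher and 8 lower without F1_Dep 1, which called 12 of the 27. Without scaling beyond library size, 9 were higher and 13 lower. With the striatum level as a covariate 0 of the 27 were called, with adjusted p from 0.0694 to 0.18, while their log2 fold changes held 76.5% to 118% of their size.

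Dentate granule cell markers were lower in sons of depressed males throughout. All 14 listed genes had a negative log2 fold change, from -2.23 to -0.71 with a median of -1.21, and in all 14 the groups did not overlap, against 10.3% of all genes. Of the 14, 5 were called lower, against 0.124% of all genes, and DESeq2 called 11. The list was drawn up with earlier results of these data known, so its direction is a description and not independent evidence. In bulk tissue, fewer granule cells and less RNA per granule cell cannot be told apart.

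Prox1, the transcription factor that sets granule cell identity, had 38.4, 113 and 71.2 CPM in F1_Dep and 240.4, 161 and 165 in F1_Ctl, a log2 fold change of -1.35 ± 0.31 (adjusted p = 0.102). The groups were apart, but the F1_Dep libraries themselves spanned a wide range. Dsp, which encodes the junction protein desmoplakin, held 1.75, 47.6 and 33.9 CPM against 117, 67.7 and 75.7, with -1.64 ± 0.67 (adjusted p = 0.279). In F1_Dep 1 Dsp was nearly unread, and 13 of the 14 markers had an unadjusted p under 0.05.

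The 5 called markers serve different functions. Lrrtm4, a postsynaptic adhesion protein that organises excitatory synapses, fell by 1.08 (SE 0.15), with 21.3, 30.0 and 23.7 CPM against 60.9, 46.9 and 50.9. Sema5a, a guidance protein of axons and dendrites, fell by 1.13 (SE 0.16) from 266, 196 and 180.0 CPM to 88.1, 117 and 88.5. For both genes all F1_Dep libraries lay below the lowest control. Tdo2, which starts the breakdown of tryptophan along the kynurenine path, had 1.7, 4.13 and 3.02 CPM in F1_Dep and 9.28, 11.6 and 11 in F1_Ctl and fell by 1.84 (SE 0.30). Plk5, a polo-like kinase of neurons, fell by 1.41 (SE 0.21) from 53.4, 46 and 41.9 CPM to 14.5, 24.5 and 14.1. Dgkh, which phosphorylates the lipid messenger diacylglycerol, held 99.2, 148 and 124 CPM against 286, 248 and 207 and fell by 0.996 (SE 0.17).

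The list level was -1.25, -0.05 and -0.57 in F1_Dep 1 to 3 and 0.89, 0.54 and 0.53 in F1_Ctl 1 to 3. F1_Dep 1 had the lowest granule cell level and the highest striatum level. Without F1_Dep 1 the dentate median was -1.01 with 14 of 14 members lower, without both F1_Dep 1 and F1_Ctl 3 it was -1.06, and with the striatum level as a covariate it was -0.93. The summed level of the 14 markers was 534 to 1047 CPM in F1_Dep and 1567 to 2092 CPM in F1_Ctl.

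**Figure D2:**
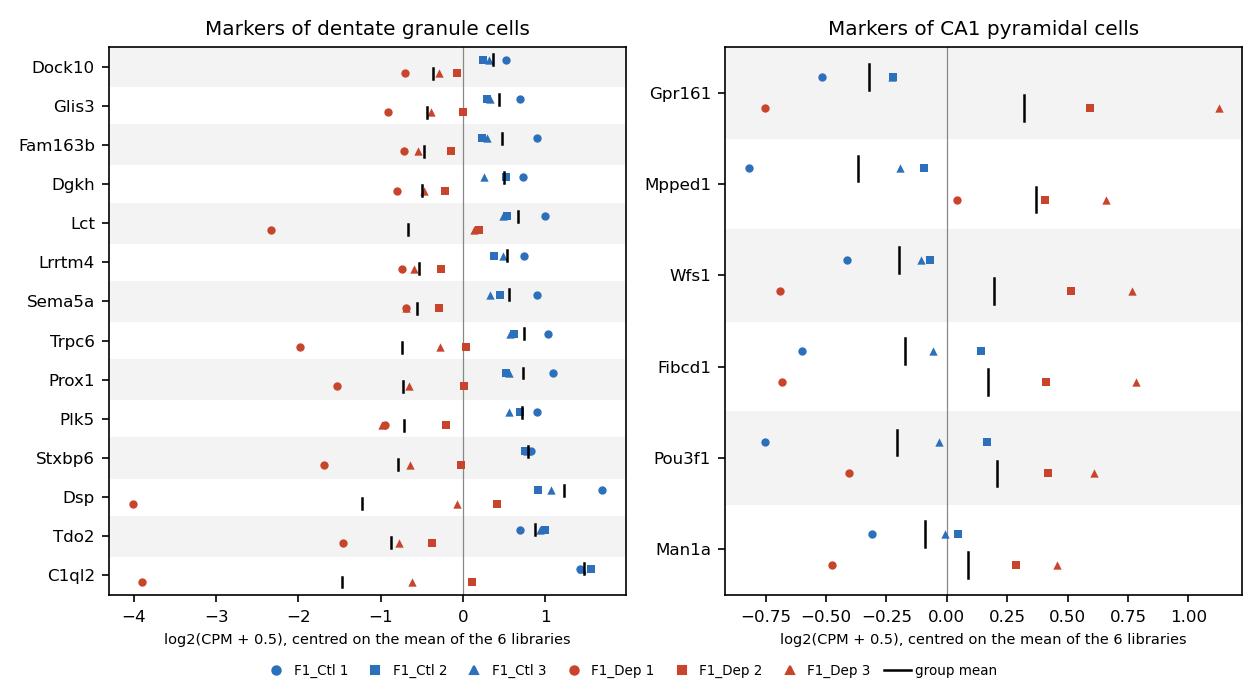
Markers of dentate granule cells (14 genes) and of CA1 pyramidal cells (6 genes) by library, as log2(CPM + 0.5) centred on the mean of the 6 libraries, with group means as black bars. All 14 dentate markers have the red F1_Dep points to the left of the blue F1_Ctl points, with F1_Dep 1 farthest left for most, while in CA1 the groups are apart for Mpped1 only.

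Markers of CA1 pyramidal cells leaned the other way. All 6 had a positive log2 fold change with a median of 0.47, though none was called in edgeR's test, 0 had an unadjusted p under 0.05, and DESeq2 called 0 and voom 0. Mpped1, a metallophosphoesterase gene, held 145, 187 and 222 CPM against 79.6, 132 and 123 (0.73 ± 0.47), and its groups did not overlap. Wfs1, the endoplasmic reticulum protein wolframin, had 91.5, 212 and 252 CPM against 111, 141 and 138, and Fibcd1 had 66.4, 143 and 185 against 70.5, 118 and 103. For Wfs1 and Fibcd1 F1_Dep 1 lay below all controls and the other F1_Dep libraries above them. When 1 library was left out, the CA1 median ran from 0.22 (without F1_Dep 3) to 0.79 (without F1_Dep 1), and with the striatum level as a covariate it was 1.197.

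Lists of other hippocampal neurons held few genes past an unadjusted p of 0.05. CA3 markers had 6 of 8 members lower with a median of -0.30. Groups were apart as lower in 4 of the 8, against 10.3% of all genes, and as higher in 1, against 8.71%. Bok, a regulator of cell death, had 77.8, 67.4 and 66.7 CPM against 92.4, 134 and 115 (-0.69 ± 0.37), and Iyd had -0.63 ± 0.55, whereas Dkk3, a secreted Wnt modulator, had 441, 430.1 and 483 CPM against 301, 418 and 294 (0.42 ± 0.14). The members of the CA3 list thus differed in sign. CA2 markers had a median of 0.19, and the 4 markers of mossy cells, the excitatory neurons of the dentate hilus, one of -0.51, with Calb2 at -1.35 ± 0.56 (adjusted p = 0.287). No gene of the CA2, CA3 and mossy lists was called by edgeR or DESeq2, voom called 1 (in the CA3 list), and 2 of the 19 had an unadjusted p under 0.05. Over omissions of 1 library, the CA3 median ran from -0.35 (without F1_Ctl 3) to -0.18 (without F1_Ctl 2), the CA2 median from 0.046 (without F1_Dep 1) to 0.39 (without F1_Ctl 1) and the mossy cell median from -0.79 (without F1_Dep 2) to -0.33 (without F1_Ctl 1). The CA2 median was -0.082 with the striatum covariate, so its direction turned.

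Interneuron markers were centred on 0, with 7 of 14 higher and a median of 0.01. In 5 of the 14 the F1_Dep libraries all lay above F1_Ctl, against 8.71% of all genes. Vip, a neuropeptide of interneurons that inhibit other interneurons, had 13.3, 12.7 and 17.6 CPM against 8.7, 8.42 and 9.78 (0.69 ± 0.24, adjusted p = 0.214), and the GABA transporter gene Slc32a1 and the synthesis enzyme gene Gad2 had 0.39 ± 0.16 and 0.26 ± 0.12. These 3 differences did not pass the threshold. Slc32a1 and Gad2 were highest in F1_Dep 1, the library high in striatum markers, at 85.1 and 203 CPM, whereas Vip was highest in F1_Dep 3. With the striatum level as a covariate Gad2 had 0.23, and 11 of the 14 markers were higher. The striatum also holds GABA neurons, and its part in these differences was not tested beyond that covariate. The interneuron median ran from -0.026 (without F1_Dep 1) to 0.095 (without F1_Ctl 3) when 1 library was left out.

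Genes of adult neurogenesis were mostly lower in F1_Dep: 13 of 15 had a negative log2 fold change, and the median was -0.51. In 4 of the 15 the F1_Dep libraries all lay below F1_Ctl, against 10.3% of all genes, and 1 was called lower, against 0.124%. That gene, Fabp7, had 8.23, 7.53 and 7.02 CPM in F1_Dep and 14.8, 22.1 and 23.1 in F1_Ctl and fell by 1.40 (SE 0.19). The groups did not overlap for Fabp7, and F1_Dep varied little. Igfbpl1, which marks young neurons, held 1.95, 1.81 and 1.49 CPM against 7.25, 2.31 and 4.39 (-1.42 ± 0.35, adjusted p = 0.11), and Neurod1, a transcription factor of newborn granule cells, 7.66, 19.9 and 14.1 against 33, 26.1 and 27.4 (-1.05 ± 0.27, adjusted p = 0.12). Sox4, a factor of immature neurons, had -0.33 ± 0.10. The list level did not separate the groups, at -0.11, -0.07 and -0.38 in F1_Dep 1 to 3 and 0.33, -0.14 and 0.49 in F1_Ctl 1 to 3. Without F1_Ctl 3 the median was -0.30, and over the other omissions of 1 library it lay between -0.60 and -0.35.

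The direction of the astrocyte list rested on 1 library. Its markers had a median of -0.12 with 10 of 13 lower, but 0.044 without F1_Ctl 3, 0.053 with 8 of 13 higher without both F1_Ctl 3 and F1_Dep 1, and 0.012 with the striatum covariate. Aqp4, the water channel of astrocyte endfeet, held 112, 132 and 122 CPM against 165, 226 and 220.1, with -0.74 ± 0.15, and narrowly missed the threshold (adjusted p = 0.0695), while Gfap, the astrocyte filament, overlapped between groups (-0.39 ± 0.19). Microglia markers were lower in 17 of 18 with a median of -0.22, but none had groups apart, and F1_Ctl 1 had the lowest list level of the 6 libraries at -0.45. Aif1, a calcium-binding protein of microglia, had -0.37 ± 0.30. The microglia median, with 1 library left out, ran from -0.46 (without F1_Ctl 1) to -0.0041 (without F1_Ctl 2); without F1_Ctl 3 it was -0.059, and without both F1_Ctl 3 and F1_Dep 1 12 of 18 were lower.

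Myelin genes were higher in 16 of 17 fitted members with a median of 0.22. Myrf, the transcription factor of myelination, had 139, 132 and 132 CPM against 78.4, 75.8 and 119 (0.56 ± 0.26, adjusted p = 0.348), and Mbp, a main protein of myelin, had 0.25 ± 0.11. F1_Ctl 3 had a myelin level of 0.36, above all F1_Dep libraries, while F1_Ctl 1 and 2 had -0.38 and -0.42. When 1 library was left out, the myelin median ran from 0.073 (without F1_Ctl 1) to 0.55 (without F1_Ctl 3), and with the striatum covariate it was -0.034 with 7 of 17 higher, so its direction turned. Oligodendrocyte precursors, endothelial cells and pericytes had medians of 0.11, -0.00068 and 0.02. Over the same omissions these ran from 0.033 (without F1_Ctl 1) to 0.30 (without F1_Ctl 3), -0.02 (without F1_Dep 2) to 0.11 (without F1_Ctl 1) and -0.016 (without F1_Ctl 2) to 0.15 (without F1_Ctl 3). In the lists of astrocytes, microglia, myelin, precursors, endothelium and pericytes edgeR called 0 of 84 entries, 4 had an unadjusted p under 0.05, and DESeq2 called 1 and voom 7.

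Tissue near the hippocampus gave the widest differences between libraries. All 16 striatum markers were higher in F1_Dep with a median of 1.61, and none was called by edgeR, while 14 had an unadjusted p under 0.05, and DESeq2 called 4 and voom 0. Their summed level was 505 to 2227 CPM in F1_Dep and 362 to 450.1 in F1_Ctl. The dopamine receptor genes Drd1 and Drd2 held 49.8, 9.25 and 6.3 and 45.5, 6.24 and 3.78 CPM in F1_Dep 1 to 3 against 8.13, 6.22 and 6.94 and 5.1, 3.08 and 4.14 in F1_Ctl, and the adenosine receptor gene Adora2a 54.6, 7.1 and 3.87 against 4.31, 1.93 and 2.3. F1_Dep 1 was far the highest library for these 3 genes. Without it the striatum median was 0.36, with 16 of 16 markers still higher in F1_Dep, and with 16 of 16 higher also without both F1_Dep 1 and F1_Ctl 3. Scn4b, a sodium channel subunit, and Adcy5, an adenylyl cyclase, were above the controls in all 3 F1_Dep libraries, at 262, 59.8 and 67.9 CPM against 55, 38.1 and 29.7 and at 331, 150.03 and 138 against 117, 109 and 113 (adjusted p = 0.139 and 0.166).

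Thalamus markers were lower in all 8 fitted members with a median of -0.79, and groups were apart in 4, against 10.3% of all genes. Ntng1, a netrin relative of thalamic axons, had 7.35, 19.3 and 19.3 CPM against 41.4, 45.1 and 27.4 (-1.30 ± 0.34, adjusted p = 0.117), Tcf7l2, a Wnt effector, 0.463, 1.98 and 1.4 against 6.29, 12.1 and 6.09, and the kinase gene Prkcd 33.9, 39.9 and 38 against 86.3, 78 and 44.6. EdgeR called none of the 8, 3 had an unadjusted p under 0.05, and DESeq2 called 1 and voom 2. Meningeal markers were lower in 10 of 11 with a median of -0.75, among them Slc6a13, a GABA transporter (-1.15 ± 0.25, adjusted p = 0.084), Islr (-0.97 ± 0.23) and Aldh1a2, a retinoic acid synthesis enzyme (-1.72 ± 0.44). EdgeR called 0 of the 11, and 3 were apart as lower, against 10.3% of all genes. The meningeal list levels overlapped, with F1_Dep 2 at 0.15 and F1_Ctl 2 at 0.098. Summed, these markers held 96.3, 186 and 179 CPM in F1_Dep 1 to 3 and 74.6, 83 and 340 in F1_Ctl 1 to 3. Without both F1_Ctl 3 and F1_Dep 1, 4 of the 11 were higher. The summed level of thalamus markers was 68 to 86.8 CPM in F1_Dep and 108 to 184 in F1_Ctl. Gbx2 in the thalamus list, Slc47a1 in the meningeal list and 4 of the 9 hypothalamus genes were below the count filter. With 1 library omitted, the thalamus median ran from -1.08 (without F1_Dep 3) to -0.39 (without F1_Ctl 2) and the meningeal median from -0.98 (without F1_Dep 2) to -0.53 (without F1_Dep 1). Cortex markers were higher in 6 of 8 fitted members, with a median of 0.55. Over the same omissions it ran from 0.21 (without F1_Dep 1) to 0.75 (without F1_Ctl 1). EdgeR called 0 of the 8, 3 as higher and 1 as lower had an unadjusted p under 0.05, and DESeq2 called 1 and voom 0. The cortex list level was 0.40, 0.073 and 0.23 in F1_Dep 1 to 3 and 0.068, -0.27 and -0.25 in F1_Ctl 1 to 3.

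Choroid plexus markers overlapped between the groups in all 19 members, with a median of 0.17. Ttr, the main transcript of that tissue, held 2604, 4085 and 3741 CPM in F1_Dep and 94.2, 531 and 8264 in F1_Ctl, so that F1_Ctl 3 was the highest library and F1_Ctl 1 the lowest. The choroid plexus median ran, with 1 library left out, from -0.33 (without F1_Ctl 1) to 3.10 (without F1_Ctl 3), and with the striatum covariate it was -0.021, so its direction was not stable. Without F1_Ctl 3 and F1_Dep 1 the choroid plexus median was 3.32. With the choroid plexus level as a covariate all 27 called genes kept their call. The part of tissue content in the changes of the dentate, CA1 and neurogenesis genes was not tested beyond the omissions and covariates given here.

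**Figure D3:**
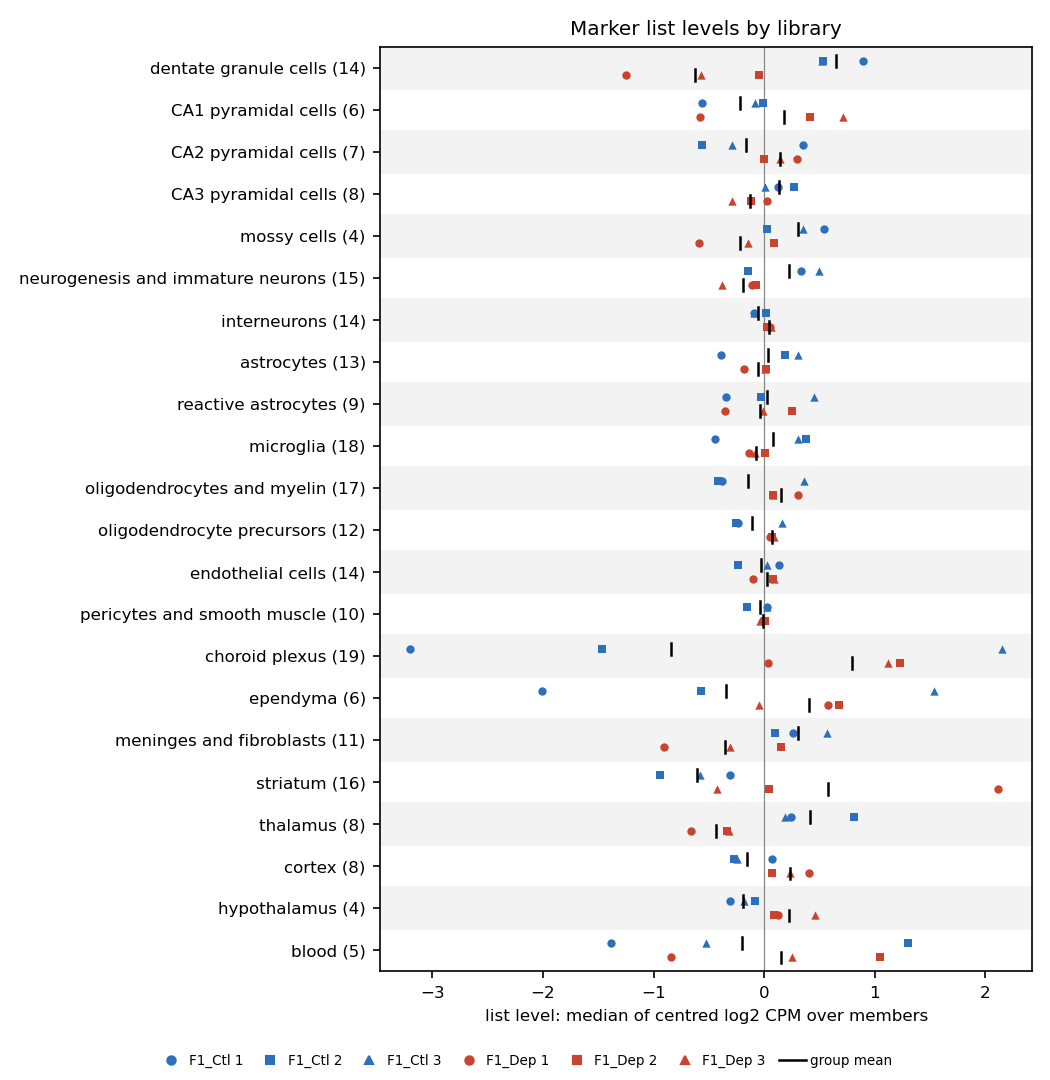
List levels of the cell type and neighbouring tissue lists by library, with the number of fitted members in brackets; each point is the median over members of log2 CPM centred on the 6 libraries, and black bars are group means. Dentate granule and thalamus markers are below all F1_Ctl libraries in all 3 F1_Dep libraries, striatum markers are high in F1_Dep 1 at 2.11, and choroid plexus markers span -3.20 to 2.15 within F1_Ctl.

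Genes that glucocorticoids induce were higher in sons of depressed males in 18 of 21 fitted members, with a median of 0.49. Of the 21, Plin4, Cdkn1a and Per1 rose, against 0.0433% of all genes called higher, and DESeq2 called 8 higher and 0 lower. In 8 members the F1_Dep libraries all lay above F1_Ctl, against 8.71% of all genes, and in 1 they all lay below, against 10.3%. This list too was drawn up with earlier results of these data known, so its counts are a description and not independent evidence. The list level was -0.07, 0.27 and 0.24 in F1_Dep 1 to 3 and -0.47, -0.12 and -0.13 in F1_Ctl 1 to 3, so each F1_Dep library exceeded each F1_Ctl library. Without F1_Dep 1 the median was 0.52, and with the striatum covariate 0.55.

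Sgk1, a kinase that acts on ion channels and transporters, had 203, 303 and 273 CPM in F1_Dep and 77.4, 85.6 and 145 in F1_Ctl. Every F1_Dep value exceeded every control value, and its log2 fold change of 1.34 ± 0.25 had an adjusted p = 0.0602, over the threshold. Of 18 alternatives, 7 called Sgk1 (adjusted p between 1.66e-05, by DESeq2, and 0.188). Nfkbia, the inhibitor of NF-kappaB, had 21.8, 24.1 and 22.7 CPM against 13.8, 17.8 and 17.2 (0.49 ± 0.13, adjusted p = 0.121). Fkbp5, which regulates glucocorticoid receptor folding and is a widely used readout of its activity, did not follow: it held 44.9, 54.4 and 57.1 CPM against 59.3, 47.5 and 46.9 (0.03 ± 0.12), and its sign changed between alternatives. The targets thus differed among themselves, from Plin4 at 2.47 to -0.90 for the lowest member.

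**Figure D4:**
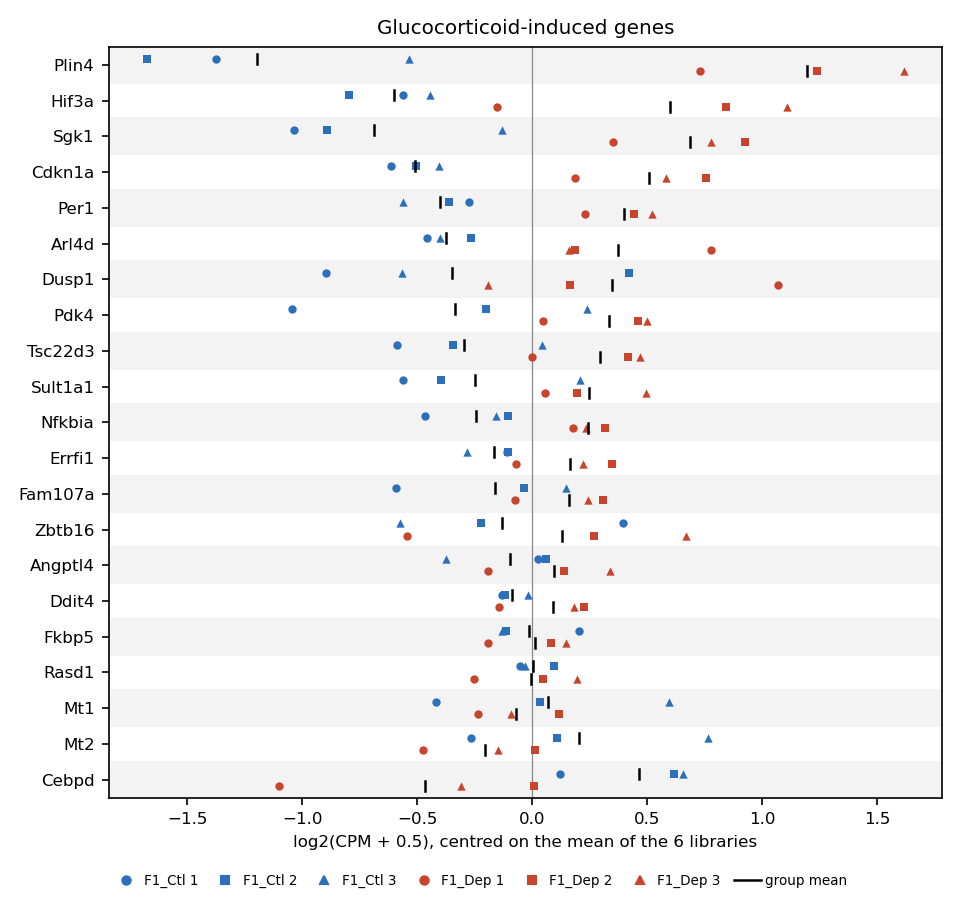
The 21 fitted genes of the glucocorticoid-induced list by library, as log2(CPM + 0.5) centred on the mean of the 6 libraries, in order of fitted log2 fold change, with group means as black bars. Plin4, Sgk1, Cdkn1a and Per1 near the top have all F1_Dep points to the right of the F1_Ctl points, and Fkbp5 overlaps.

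Promoters of the list were searched because hormone-bound receptor acts through DNA. RefSeq sequences (GRCm38.p6, from 250 bases before to 50 after a gene start) matched 18 of the genes with 30 promoters. The full glucocorticoid response element was taken as an inverted repeat of its 6-base half-site AGAACA around 3 bases. An exact match, searched on both strands, was found in 1 of the 30, a promoter of Sgk1, and in 3 of all 32851 promoters (0.00913%). Variants of the full element and sequence outside this window were not searched. The half-site alone, which the full element contains, was in 7 of the 30 (23.3%) and in 19% of all promoters. The Sgk1 promoter below, 1 of 6 RefSeq starts of the gene, is shown for that element, in capitals, whose first base lies 189 bases before the start, and the single Plin4 promoter is shown as that of the list's largest rise and holds no full element in this window.
Sgk1 (chr10:21993640-21993939, plus strand): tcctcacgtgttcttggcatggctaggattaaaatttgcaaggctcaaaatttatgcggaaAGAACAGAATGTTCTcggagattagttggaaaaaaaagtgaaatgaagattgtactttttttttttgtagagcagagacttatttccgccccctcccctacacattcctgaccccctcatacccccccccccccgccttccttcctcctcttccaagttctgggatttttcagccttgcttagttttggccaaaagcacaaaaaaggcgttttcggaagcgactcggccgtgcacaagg
Plin4 (chr17:56109733-56110032, minus strand): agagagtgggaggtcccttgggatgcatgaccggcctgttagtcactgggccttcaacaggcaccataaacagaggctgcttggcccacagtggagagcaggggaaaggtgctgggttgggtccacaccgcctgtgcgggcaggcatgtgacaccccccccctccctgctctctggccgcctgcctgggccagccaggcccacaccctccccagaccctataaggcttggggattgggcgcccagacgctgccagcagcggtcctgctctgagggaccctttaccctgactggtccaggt

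A match is a description of letters and not a bound site. The cyclic AMP response element TGACGTCA, through which CREB acts downstream of neuronal activity, was in 3 of the 30 promoters of the glucocorticoid list (10%) and in 3 of 34 promoters of the immediate early list (8.82%), with 1.79% of all promoters holding it on either strand.

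Receptors and other genes of the stress hormone axis had a median of 0.04 and ran from -0.74 to 0.62. Nr3c1, the glucocorticoid receptor, held 116, 102 and 101 CPM against 82.4, 124 and 105 (0.04 ± 0.17), and Nr3c2, the mineralocorticoid receptor, 173, 233 and 242 against 292, 273 and 203 (-0.25 ± 0.16). Both overlapped between the groups, and the sign of Nr3c1 changed between alternatives. Hsd11b1, the enzyme that regenerates active glucocorticoid inside cells, was below the controls in each F1_Dep library at 21.7, 30.0 and 26.2 CPM against 33.1, 50.8 and 46.4 (-0.74 ± 0.17, adjusted p = 0.0996). Crhr1, a receptor of corticotropin-releasing hormone, had 0.24 ± 0.28, and Crhbp, which binds that hormone, 0.62 ± 0.23. None of the 9 genes was called by edgeR, 2 had an unadjusted p under 0.05, and DESeq2 called 1 and voom 1. The list's median of 0.04 ran from 0.0019 (without F1_Dep 3) to 0.14 (without F1_Ctl 3) when 1 library was left out.

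Clock genes had a median of 0.08 over 16 members. Against 0.0433% of all genes, 1 of the 16 was called higher, Per1. Per2, its partner in the repressor arm of the clock and also a glucocorticoid target, held 56.7, 69.2 and 74.8 CPM against 45.3, 32.3 and 31.3, apart between groups at 0.88 ± 0.16 (adjusted p = 0.0601). Npas2, an activator of the clock, had 0.82 ± 0.27, with its highest value of 36.3 CPM in F1_Dep 1. The list as a whole ran from -0.28 to 0.88. The hour of tissue collection is not given, so its part was not tested. Omission of F1_Ctl 2 gave a clock median of 0.17.

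Immediate early genes, which neurons switch on within minutes of activity, were higher in 20 of 26 fitted members with a median of 0.52. Only Plk3 was called, by edgeR as higher (0.0433% of all genes), and 9 members lay apart as higher (8.71% of all genes) and 2 as lower (10.3%). Egr1, a zinc finger factor, held 542, 452 and 424 CPM in F1_Dep against 164, 225 and 154 (1.39 ± 0.38, adjusted p = 0.132). Arc, which regulates AMPA receptor uptake at synapses, held 535, 532 and 408 against 151, 299 and 127 (1.35 ± 0.41, adjusted p = 0.169). In both genes all F1_Dep libraries exceeded the controls, and F1_Ctl 2 was the highest control. For Fos that control lay among the F1_Dep libraries, at 54.5, 43.2 and 30.8 CPM against 15.7, 42.6 and 10.8 (0.90 ± 0.44). Without both F1_Ctl 3 and F1_Dep 1 the list's median was 0.32.

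Homer1, a scaffold of the postsynaptic density with an activity-induced short form, held 229, 201 and 229.6 CPM against 124, 129 and 121 (0.82 ± 0.16, adjusted p = 0.0674), with groups far apart. Sik1, a kinase induced by cyclic AMP, had 0.63 ± 0.17. Jun went the other way, with 36.7, 76.5 and 50.3 CPM against 92.8, 113 and 100.4 (-0.90 ± 0.22, adjusted p = 0.11), and so did Bdnf, the brain-derived neurotrophic factor, with 39, 52.9 and 50.7 against 63.9, 62.5 and 61.4 (-0.40 ± 0.13, adjusted p = 0.186). Jun and Bdnf were below the controls in each F1_Dep library. The list thus held members apart in both directions.

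Of the other neurotrophin genes, Ntf3, which encodes neurotrophin 3 and is expressed by granule cells, was nearest to the threshold. It held 5.04, 5.04 and 5.18 CPM in F1_Dep and 12.7, 8.25 and 10.6 in F1_Ctl (-1.05 ± 0.19, adjusted p = 0.0596), and its groups did not overlap. The 7 fitted neurotrophin and receptor genes had a median of -0.20, with -0.059 without F1_Dep 1 and -0.028 without F1_Ctl 1. Among neuropeptides and their processing enzymes, 12 of 21 were higher with a median of 0.08, which ran from 0.011 (without F1_Dep 1) to 0.16 (without F1_Ctl 2) over omissions of 1 library. Vgf was called higher, against 0.0433% of all genes. Pcsk1, a convertase that cleaves neuropeptide precursors, had 37, 28.2 and 31.3 CPM against 17.7, 20.5 and 16.3 (0.82 ± 0.24, adjusted p = 0.157).

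Receptor families showed single members apart. In the serotonin list the median was 0.41 over 13 genes, and 0.19 without F1_Ctl 1. Htr2a, an excitatory serotonin receptor, held 28.2, 21.3 and 25.7 CPM against 15.5, 17.3 and 14.3 (0.68 ± 0.14, adjusted p = 0.0751), and Htr1b, an inhibitory one, 20.005, 14.4 and 17.6 against 5.76, 9.85 and 7.54 (1.17 ± 0.40). The serotonin-degrading enzyme gene Maoa was lower at 31.6, 29.4 and 27.4 against 32.9, 36.2 and 38.9 (-0.29 ± 0.10). All 3 had groups apart without passing the threshold.

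The 22 glutamate receptor genes had a median of 0.01, 11 higher and 11 lower. Grm2, a presynaptic receptor abundant in granule cells, had 8.23, 42.9 and 30.4 CPM against 97, 57.3 and 66.5 (-1.43 ± 0.42), and Grm8 and the kainate receptor gene Grik3 had 14.2, 6.46 and 6.12 against 3.3, 3.03 and 2.84 and 113, 60.6 and 59.2 against 44.4, 37.4 and 28.5 (1.54 ± 0.42 and 1.08 ± 0.32). Grm8 and Grik3 were highest, and Grm2 lowest, in F1_Dep 1, the library high in striatum markers. Among 11 GABA-A subunits the median was -0.15. Gabra3 held 68.7, 45.9 and 51.8 CPM against 22.7, 32.9 and 22.8 (1.09 ± 0.26, adjusted p = 0.11), while Gabra4 had -0.36 ± 0.11, so that subunits differed in sign. Depending on the library left out, the glutamate receptor median ran from -0.10 (without F1_Ctl 3) to 0.088 (without F1_Ctl 2) and that of GABA-A subunits from -0.23 (without F1_Ctl 3) to -0.072 (without F1_Dep 2).

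Synaptic machinery was close to the median of all genes. Vesicle release genes had a median of 0.08 over 23 members, with Cplx2, a regulator of vesicle fusion, at -0.32 ± 0.12. Postsynaptic density genes had 0.08 over 25, with the scaffold gene Dlgap4 at 264, 282 and 269 CPM against 224, 228 and 203 (0.32 ± 0.09) and Nrgn, a calmodulin-binding protein of spines, at -0.37 ± 0.15. Potassium channel genes had 0.01 over 22. In the serotonin, glutamate, GABA-A, release, postsynaptic and potassium lists edgeR called 0 of 116 entries, 24 had an unadjusted p under 0.05, and DESeq2 called 6 and voom 17. Omission of 1 library at a time gave ranges: the release median ran from -0.032 (without F1_Ctl 3) to 0.16 (without F1_Ctl 2), the postsynaptic median from 0.0026 (without F1_Ctl 3) to 0.16 (without F1_Ctl 2) and the potassium channel median from -0.083 (without F1_Ctl 3) to 0.084 (without F1_Ctl 2).

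Chaperones were mostly higher. Of 17 fitted heat shock genes 16 had a positive log2 fold change with a median of 0.19, and 7 lay apart as higher (8.71% of all genes); 8 had an unadjusted p under 0.05, and DESeq2 called 6 and voom 7, and edgeR 0. Dnajb1, a co-chaperone that delivers proteins to Hsp70, had 56.1, 84.3 and 67 CPM against 32.5, 45.3 and 43.7 (0.77 ± 0.16, adjusted p = 0.076). Hspa1b and Hspa1a, the inducible Hsp70 genes, held 31.3, 95.2 and 69 and 30.3, 70.7 and 54.8 against 18.7, 29.1 and 20.6 and 20.4, 28.3 and 18.8 (1.52 ± 0.33 and 1.21 ± 0.26), and are uncertain one by one because near-identical copies can share reads. Hsph1, which recharges Hsp70, had 0.34 ± 0.09. All 4 had each F1_Dep library above each control.

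Genes of endoplasmic reticulum stress were higher in 19 of 21 with a median of 0.28, and 6 lay apart as higher (8.71% of all genes). EdgeR called 0, 8 had an unadjusted p under 0.05, and DESeq2 called 4 and voom 9. Herpud1, which acts in the degradation of misfolded proteins, held 49.8, 67.8 and 64.6 CPM against 39, 40.1 and 47.3 (0.53 ± 0.12, adjusted p = 0.0877), and Edem1, which acts in the same path, 34.2, 33.6 and 34.6 against 25.1, 22.1 and 27.8 (0.45 ± 0.10). The chaperone gene Hspa5 overlapped, at 303, 411 and 386 CPM against 190.0, 205 and 379, since F1_Ctl 3 lay among the F1_Dep libraries. The list level of F1_Ctl 3 was 0.23, with -0.27 and -0.28 in the other controls. The median was 0.14 without F1_Ctl 1 and 0.47 without both F1_Ctl 3 and F1_Dep 1.

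Targets of p53 split. Cdkn1a and Plk3 rose and Bbc3 fell, and the median over 17 genes was 0.10. Of all genes, 0.0433% were called higher and 0.124% lower. Zmat3, an RNA-binding p53 target, held 107, 96.7 and 106 CPM against 77.1, 70.4 and 68.7 (0.52 ± 0.11, adjusted p = 0.0792). Hypoxia-induced genes were higher in 10 of 13 with a median of 0.29. P4ha2 rose, against 0.0433% of all genes called higher. The related P4ha1 had 71.9, 108 and 103 CPM against 61.1, 49.8 and 73.3 (0.62 ± 0.18), while the histone demethylase gene Kdm3a was apart at 56.7, 57.7 and 62.2 against 46.4, 39.5 and 44.8 (0.43 ± 0.12). With 1 library omitted, the p53 median ran from 0.033 (without F1_Ctl 1) to 0.21 (without F1_Ctl 3) and the hypoxia median from 0.23 (without F1_Ctl 2) to 0.45 (without F1_Ctl 3).

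Genes of protein synthesis and respiration had mostly negative log2 fold changes. All 82 fitted genes of cytosolic ribosomal proteins had a negative log2 fold change with a median of -0.49, and 10 had groups apart, against 10.3% of all genes. EdgeR called none, 68 had an unadjusted p under 0.05, and DESeq2 called 6 and voom 74. Rpl5 held 38, 31.9 and 29.1 CPM against 43.1, 42.3 and 56.9 (-0.52 ± 0.13, adjusted p = 0.113) and Rps15a 120.5, 126 and 131 against 134, 177 and 184 (-0.39 ± 0.11); many of these genes have pseudogenes that can share reads. The list level was -0.19, -0.25 and -0.22 in F1_Dep 1 to 3 and -0.28, 0.38 and 0.56 in F1_Ctl 1 to 3, so F1_Ctl 1 lay with the F1_Dep libraries. Without F1_Ctl 3 the median was -0.30, and without F1_Ctl 1 it was -0.71.

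Nuclear genes of oxidative phosphorylation were lower in 73 of 75 with a median of -0.33. Their level was -0.10, -0.22 and -0.16 in F1_Dep 1 to 3 and -0.20, 0.28 and 0.40 in F1_Ctl 1 to 3, with F1_Ctl 1 again beside F1_Dep. Without F1_Ctl 3 the median was -0.19, and without F1_Ctl 1 -0.49. Cox6c, a subunit of cytochrome oxidase, had 115, 111 and 110.0 CPM against 112, 168 and 199.9 (-0.52 ± 0.17). The 13 protein genes of the mitochondrial genome were all lower with a median of -0.44, and 11 were apart, against 10.3% of all genes. The complex I genes mt-Nd5 and mt-Nd4l held 3536, 3424 and 3331 and 358, 421 and 429 CPM in F1_Dep against 4386, 4420 and 4940 and 559, 549 and 617 in F1_Ctl (-0.42 ± 0.10 and -0.51 ± 0.11), and mt-Nd3 572, 569 and 536 against 660.2, 971 and 1140 (-0.72 ± 0.18). In the nuclear and mitochondrial lists together edgeR called 0 of 88 entries. Of the 75 nuclear genes 5 were apart as lower, against 10.3% of all genes. Among these 75, 34 had an unadjusted p under 0.05, and DESeq2 called 0 and voom 46. Of the 13 mitochondrial genes 12 had an unadjusted p under 0.05, and DESeq2 called 6 and voom 10.

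**Figure D5:**
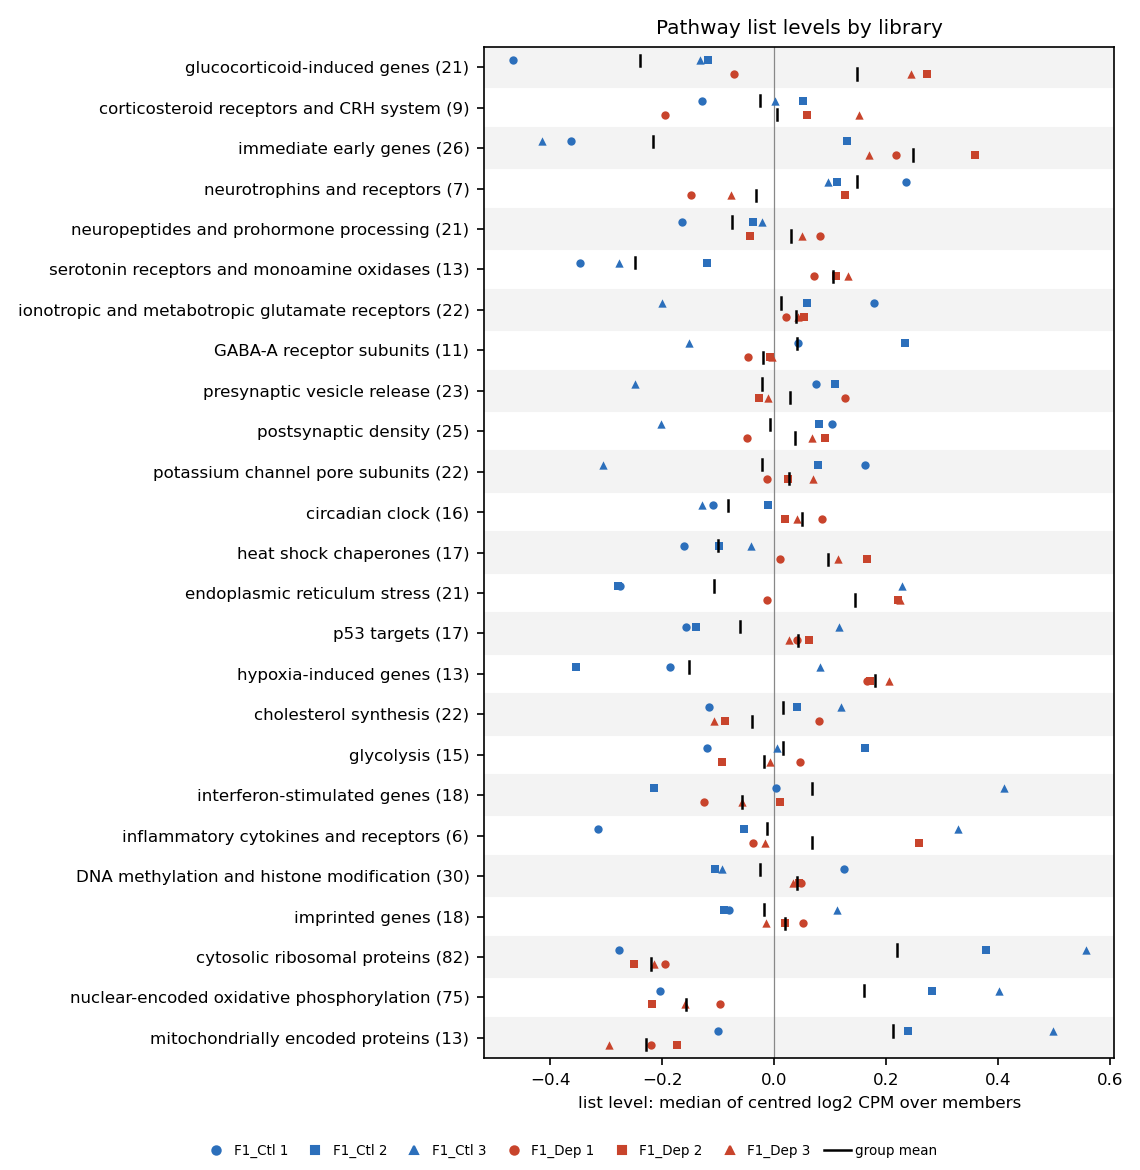
List levels of the pathway lists by library, with the number of fitted members in brackets; each point is the median over members of log2 CPM centred on the 6 libraries, and black bars are group means. F1_Dep lies above all F1_Ctl libraries in the glucocorticoid, immediate early, serotonin, clock, heat shock and hypoxia lists. For ribosomal genes F1_Ctl 1 at -0.28 sits with F1_Dep.

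Metabolic, immune, chromatin and imprinted lists held single genes apart. In these 6 lists edgeR called 0 of 109 entries, 11 had an unadjusted p under 0.05, and DESeq2 called 3 and voom 13. Cholesterol synthesis genes had a median of -0.08, and glycolysis genes one of -0.07 with Pfkp at 0.28 ± 0.11. Interferon-stimulated genes had -0.20, in which Irf9 was apart as higher (17.3, 17.8 and 16.7 CPM against 14, 8.58 and 13.7). Of the 12 inflammatory genes 6 were below the filter, among them Il1b, Tnf and Il6. Of 30 genes for DNA methylation and histone modification, the median was 0.02, and the deacetylase genes Hdac4 and Hdac5 held 62.2, 60.2 and 59 and 175, 176 and 181 CPM against 45.8, 50.5 and 46.5 and 141, 155 and 155 (0.35 ± 0.10 and 0.24 ± 0.07). Dnmt1, the maintenance DNA methyltransferase, had 0.25 ± 0.12. When 1 library was left out, the medians ran from -0.15 (without F1_Dep 1) to -0.032 (without F1_Ctl 2) for cholesterol synthesis, -0.18 (without F1_Ctl 1) to 0.023 (without F1_Ctl 2) for glycolysis, -0.26 (without F1_Dep 2) to -0.018 (without F1_Ctl 3) for interferon-stimulated genes and -0.011 (without F1_Dep 2) to 0.09 (without F1_Ctl 1) for the chromatin list.

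Imprinted genes, read from 1 parental copy, were near 0 as a group, with a median of -0.01 over 18 fitted members. Magel2, a paternally expressed gene, held 1.39, 1.03 and 1.31 CPM against 0.572, 0.385 and 0.549 (1.29 ± 0.35, adjusted p = 0.133), and Zim1, a maternally expressed one, 5.3, 6.37 and 4.91 against 8.09, 6.66 and 6.59 (-0.36 ± 0.17). Both had groups apart at low levels, and neither passed. The imprinted median ran from -0.10 (without F1_Ctl 1) to 0.10 (without F1_Ctl 3) when 1 library was left out.

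The change in sons was also set against the change between stressed and unstressed males, F0_Dep minus F0_Ctl. The difference of the changes passed edgeR's test in 11 of 16163 genes (0.0681%), and 6 of the 27 genes were among them: Krt80, Plk3 and Vgf as higher and Kctd4, Sema5a and Adarb2 as lower in the sons' comparison. For the other 21 a difference from the F0 change was not called, which does not show that the changes were alike.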

How the data were processed

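Expected counts were deposited by the authors (estimates, 27.2% of them not whole) for 35812 gene IDs in 12 libraries. They were rounded before testing. The sources used here name no counting tool, annotation or use of strand, so overlapping and antisense genes cannot be told apart. HISAT2, Cufflinks 2.2.1 and mm10 are named per the submitters' processing notes, and a stranded mRNA kit per the labels' protocols. FPKM of F1_Dep, deposited by the authors, served only to give levels per length, and FPKM of F1_Ctl were not used here. Symbols were found for 35202 IDs; the other 610 held 0.579% of counts and kept their ID. Unused per-sample columns numbered 0. Coordinates and gene types come from GENCODE M21 (GRCm38).

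Counts were scaled by TMM, filtered by filterByExpr and tested with edgeR 4.0.16 (R 4.3.3) quasi-likelihood F-tests over all 4 groups, with Benjamini-Hochberg adjustment over 16163 genes at 0.05. SE are derived from the F statistic and approximate. List levels used log2 CPM with a prior count of 2. The members, gene lists and alternatives were chosen with earlier results of these data known. The naming rule took all called genes and, in each list, the 4 members of smallest p and its first 2. Alternatives comprised DESeq2 1.42.0, voom with library weights (limma 3.58.1), other scalings and filters, omissions of libraries, tissue covariates and a replicate block. The test was checked on simulated counts. Some listed genes are not analysed here because their symbol was not matched, and a few others are not reported here and were left out of the list counts and medians after these had been computed.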

Additional observations from a re-analysis of the deposited data

Results flagged for a closer look

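For 11 of the genes tested, 6 of them named in the text, the change in sons of depressed males differed from the change in stressed males of the earlier generation, by a test of the difference itself (edgeR, interaction term, Benjamini-Hochberg adjustment over 16163 genes). Plk3 had a difference of the changes of 1.49 ± 0.18 (log2 ± SE, adjusted p = 0.0161), with 13.1, 14.3 and 12.1 CPM in F0_Ctl and 8.96, 9.59 and 8.4 in F0_Dep, so its F0 change was -0.55. Krt80 had 3.16 ± 0.49 (adjusted p = 0.0479) and an F0 change of -0.75, and Vgf 1.07 ± 0.16 (adjusted p = 0.0367) and an F0 change of -0.40. On the lower side stood Sema5a with -1.62 ± 0.23 (adjusted p = 0.0316), Kctd4 with -1.56 ± 0.23 (adjusted p = 0.0367) and Adarb2 with -1.56 ± 0.24 (adjusted p = 0.047), whose F0 changes were 0.49, 0.28 and 0.45. In each of these 6 genes the fitted F0 change had the opposite sign to the change in sons. Passing both tests favours genes with such signs, and the F0 changes themselves were not tested here. Groups of 3 were too small for the search for single outlying samples.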

How the results depend on the processing

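The 27 genes called between F1_Dep and F1_Ctl became 79 with no filter on low counts, 0 when only these 2 groups were fitted, 65 with the choroid plexus level and 4 with the striatum level as a covariate, 556 by DESeq2 and 1911 by voom. Leaving out 1 library gave 0 to 678 calls. Other scalings gave 22 to 37, and omission of both F1_Ctl 3 and F1_Dep 1 gave 37, of which 27 higher and 10 lower. With the replicate block 0 genes passed (2150 had an unadjusted p under 0.05, and the lowest adjusted p was 0.0563). Deviations from the group means correlated at 0.022, -0.098 and -0.093 between same-numbered libraries and at -0.080 to 0.14 between the others. With 3 libraries a group, these values cannot show whether the numbers pair the mice. The 11 genes whose change differed from the F0 change became 6 without scaling, 63 with no filter, 41 without F1_Ctl 3 and F1_Dep 1, 0 with the striatum covariate, 4 with the replicate block, and 0 to 126 without 1 library. The mitochondrially encoded share differed by -3.11 to -1.37 percentage points when 1 library was left out.

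Of 846 values of the 47 list medians, 73 had the other sign, in 19 of the lists, and in 15 lists leaving out 1 library was enough, with the ranges given beside each list. In 5 of the 73 the shift also exceeded the spread between libraries: reactive astrocytes had 0.50 and vesicle release genes -0.11 without F1_Ctl 3 and F1_Dep 1, endothelial cells 0.23 and neurotrophins 0.069 by voom, and imprinted genes 0.10 without F1_Ctl 3. Medians not given in the report ran, when 1 library was left out, from -0.15 to 0.25 for reactive astrocytes, -0.42 to 1.57 for ependyma, -0.48 to 1.38 for blood, and -0.086 to 0.33 for inflammatory genes. For hypothalamus markers the range was 0.14 to 0.42. Of 2016 values for 112 named genes, 13 changed sign: Drd1 had -0.22 and Drd2 -0.23 with the striatum covariate; Ttr had -0.57 with the choroid plexus covariate, -0.39 with the striatum covariate, -0.34 without F1_Ctl 1 and -0.21 without F1_Ctl 2; Fkbp5 had -0.014 without F1_Ctl 3, -0.0067 without F1_Dep 2 and -0.044 without F1_Dep 3; Nr3c1 had -0.027 without both libraries, -0.15 by voom, -0.10 without F1_Ctl 1 and -0.028 without F1_Dep 1. When 1 library was left out, Fkbp5 ran from -0.044 to 0.145, Nr3c1 from -0.10 to 0.23 and Ttr from -0.34 to 3.5. The cause of these shifts was not tested. With 3 mice a group, 1 library decides a call, and genes under the count filter were not tested.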
